A study of Homo sapiens with 28 samples.

Results

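Before a long-chain fatty acid can be burned it is joined to coenzyme A by an acyl-CoA synthetase, carried into the mitochondrion as a carnitine ester, and shortened there from its carboxyl end by repeated rounds of dehydrogenation, hydration, a further dehydrogenation and thiolysis. ACSL3 and ACSL5 are synthetases of the first step, and CPT1A and CPT2 are the carnitine palmitoyltransferases of the outer and inner mitochondrial membrane. ACADVL and ACADM are the very-long-chain and medium-chain acyl-CoA dehydrogenases, HADHA and HADHB are the alpha and beta subunits of the mitochondrial trifunctional protein, HADH is the short-chain 3-hydroxyacyl-CoA dehydrogenase and ACAA2 a mitochondrial 3-ketoacyl-CoA thiolase. These 10 genes of fatty acid activation and oxidation were taken by gene symbol, and all 10 were found among the 58278 genes of the counts table and passed the filter on low counts in tumors and in cultures.

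The study grew HCT116 cells, an established human colorectal carcinoma line carrying luciferase and GFP, under the skin of male NOD/SCID mice that were 5 weeks old at injection and asked how tumors adapt to blockade of CDK4/6 and of glutaminase. Mice received by daily gavage vehicle (Control), the CDK4/6 inhibitor Palbociclib at 100 mg/kg/day, the glutaminase inhibitor Telaglenastat at 150 mg/kg/day (spelled Telaglenestat in the labels and below) or both drugs, named Palbociclib+Telaglenestat, for 23 days. RNA-seq was made of residual tumors, 3 of Control, 5 of Palbociclib, 4 of Telaglenestat and 4 of Palbociclib+Telaglenestat, and of 12 ex vivo cultures, 3 per treatment, each a line grown from a separate digested tumor in medium without drug. The HCT116 cells of all tumors and cultures thus descend from the same injected line, and the hosts lack mature lymphocytes. The cultures carry the treatment history of their mouse and no drug in the dish.

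Counts per library summed to between 6273834 and 10617936 in the 16 tumors and between 7198540 and 13815675 in the 12 cultures, and each of the 10 genes had at least 101 counts in every library. Levels are given as CPM, library-size scaled counts, on library sizes scaled by edgeR, separately in tumors and in cultures. Differences are log2 fold changes with their standard error (SE), and a gene is called where its adjusted p (from the quasi-likelihood test of edgeR, adjusted by Benjamini-Hochberg over all genes tested) is under 0.05. The dependence of counts on GC content was not the same in all treatments. The slope, in each library, of the genes' log2 deviations against their GC content was 0.246 to 0.257 in Control tumors and 0.0968 to 0.359 in Palbociclib tumors, but -0.385 to -0.30 in Telaglenestat tumors and -0.283 to -0.161 in Palbociclib+Telaglenestat tumors. Each comparison was therefore also fitted with offsets that take out each library's own trend with GC content and length. These values are called corrected. Slopes were positive in every tumor without Telaglenestat and negative in every tumor with it. A bias of the libraries and a drug response that follows GC content thus cannot be told apart, and the offsets take out either. All 8 epithelial marker genes listed for HCT116 passed the filter in tumors, with a summed level between 2897 and 4417 CPM in Control and Palbociclib tumors, 1534 to 1757 in Telaglenestat tumors and 2325 to 2563 in Palbociclib+Telaglenestat tumors, and VIL1 had no count in Telaglenestat tumors. None of 6 adipocyte markers passed it, their summed level was at most 0.662 CPM in any tumor, and ADIPOQ had no count in Control tumors. The sum of 6 fibroblast markers was 161.5 to 203 CPM in Control tumors, 116 to 201 with Palbociclib, 47.8 to 59.1 with Telaglenestat and 96.1 to 141 with the combination, with LUM at 0 in all tumors, and that of 6 skeletal muscle markers ran from 1.49 to 103 CPM over all tumors. The sum of 6 leukocyte and macrophage markers, with C1QA at 0 throughout, was 15.5 to 20.8 CPM in Control tumors, 23.7 to 32.99 with Palbociclib, 2.73 to 9.87 with Telaglenestat and 9.67 to 16.5 with the combination, so that Palbociclib tumors lay above and Telaglenestat tumors below Control. That of 5 endothelial markers was at most 2.75 CPM. All of these sums are uncorrected, and the part of the GC dependence in their differences between groups was not tested. The hosts are mice and the counts are of human genes, so these sums are not a direct measure of host cells. Whether the reads came from mouse cells or from HCT116 cells was not tested. The part of other cells in the results was not tested either. In bulk RNA, fewer cells of a type and less RNA per cell cannot be told apart.

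On the GENCODE 29 annotation of GRCh38, ACSL3 (ENSG00000123983.13) lies on chromosome 2 from 222860934 to 222944639 and ACSL5 (ENSG00000197142.10) on chromosome 10 from 112374018 to 112428380. CPT1A (ENSG00000110090.12) lies on chromosome 11 from 68754620 to 68844410 and CPT2 (ENSG00000157184.6) on chromosome 1 from 53196429 to 53214197. Of the oxidation genes, ACADM (ENSG00000117054.13) lies on chromosome 1 from 75724347 to 75787575, ACADVL (ENSG00000072778.19) on chromosome 17 from 7217125 to 7225273, HADH (ENSG00000138796.16) on chromosome 4 from 107989714 to 108035175 and ACAA2 (ENSG00000167315.17) on chromosome 18 from 49782167 to 49813960. HADHA (ENSG00000084754.10) and HADHB (ENSG00000138029.13) are neighbours on chromosome 2, from 26190635 to 26244726 on the minus strand and from 26243170 to 26290468 on the plus strand. The GC content of the longest transcript was 38.07% for ACSL3, 38.47% for CPT2, 40.97% for ACADM, 43.53% for HADHB, 44.79% for ACSL5, 45.08% for HADH, 45.58% for ACAA2, 49.43% for HADHA, 50.78% for CPT1A and 58.84% for ACADVL. ACADM shares 157 exon bases with RABGGTB on the same strand and ACAA2 385 with AC090227.1, so that reads there could be split by the counting, although AC090227.1 had only 330 counts over the 28 libraries against 6072 of ACAA2. ACSL5, CPT2 and ACADVL share 144, 99 and 85 exon bases with ZDHHC6, C1orf123 and DLG4 on the opposite strand, and whether the counting used strand is not given in the sources used here.

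The promoters of 4 genes are printed because the results turn on them, HADHB and HADHA as a head-to-head pair, and ACSL3, HADH and ACAA2 as the genes that were lower in Palbociclib tumors. Sequences are the 250 bases before the RefSeq start on GRCh38.p14, read 5′ to 3′ on the strand of the gene. For ACSL5, ACADVL and HADH, which have a further RefSeq start, the start nearest the GENCODE start was used. The RefSeq starts of HADHA and HADHB are 306 bases apart, and 194 of the 250 bases upstream of HADHB also lie upstream of HADHA. In the HADHB window, chr2:26244689-26244938 on the plus strand, capitals mark those shared bases.
HADHB: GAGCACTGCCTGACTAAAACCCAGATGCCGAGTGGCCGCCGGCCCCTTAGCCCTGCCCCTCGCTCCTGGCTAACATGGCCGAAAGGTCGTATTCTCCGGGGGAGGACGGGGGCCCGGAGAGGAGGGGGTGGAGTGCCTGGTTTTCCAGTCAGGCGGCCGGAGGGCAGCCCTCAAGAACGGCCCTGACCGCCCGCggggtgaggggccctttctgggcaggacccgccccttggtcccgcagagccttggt
In the next windows, capitals mark the GC box GGGCGG and, as a further promoter motif, the letters CCAAT on either strand. They are chr2:222860786-222861035 (plus) for ACSL3, chr4:107989639-107989888 (plus) for HADH and chr18:49813534-49813783 (minus) for ACAA2.
ACSL3: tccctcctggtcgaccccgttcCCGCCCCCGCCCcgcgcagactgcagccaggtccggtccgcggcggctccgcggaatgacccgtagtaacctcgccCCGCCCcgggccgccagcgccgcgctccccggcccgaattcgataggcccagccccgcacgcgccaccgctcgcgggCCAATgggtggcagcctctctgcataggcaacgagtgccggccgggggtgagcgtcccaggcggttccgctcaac
HADH: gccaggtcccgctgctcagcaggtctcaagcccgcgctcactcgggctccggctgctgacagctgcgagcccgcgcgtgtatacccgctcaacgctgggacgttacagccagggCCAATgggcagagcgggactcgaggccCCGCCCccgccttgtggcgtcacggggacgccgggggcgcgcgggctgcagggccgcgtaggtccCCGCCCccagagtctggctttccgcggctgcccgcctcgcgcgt
ACAA2: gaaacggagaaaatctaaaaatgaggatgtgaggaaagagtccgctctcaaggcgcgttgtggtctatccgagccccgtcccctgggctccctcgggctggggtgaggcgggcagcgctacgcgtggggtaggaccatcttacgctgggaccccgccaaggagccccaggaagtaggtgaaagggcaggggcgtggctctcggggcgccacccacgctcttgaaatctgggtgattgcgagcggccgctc
GGGCGG was found on either strand in the windows of 6 of the 10 genes, against 42.6% of 35116 RefSeq windows of the same length, and CCAAT in 2 (ACSL3 and HADH), against 32.0%. AGGTCA, the core letters of nuclear receptor sites, was found upstream of ACSL5 alone, against 12.1% of all windows. These counts depend on the start used. The window of the further ACSL5 start held no AGGTCA, and that of the further ACADVL start held GGGCGG 2 times. TTTCCCGC, letters of an E2F motif, was found upstream of CPT2 alone, against 1.4%. The ACAA2 window held none of the 7 motifs searched, which also included the E-box CACGTG, the further E2F letters TTTGGCGC and the TATA box TATAAA, whereas that of ACSL3 held GGGCGG 3 times and CCAAT once. A match is a description of letters and not a bound site.

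Per kilobase of exon, ACSL5, HADHA and ACADVL were the most abundant of the 10 in Control tumors, at 43.6, 41.5 and 38.25 CPM per kilobase on the scale of all 28 libraries. HADH and CPT2 were the least abundant, at 2.60 and 2.01 CPM per kilobase. Between these lay ACSL3 at 27.5, HADHB at 19.4, ACADM at 14.5, CPT1A at 14.4 and ACAA2 at 5.84. HADHA was thus above its partner subunit HADHB per kilobase in Control tumors, and so it was in Control cultures, at 46.2 against 22.8. Exon length here is the union of all annotated exons, so a gene with long, rarely used exons appears lower on this scale.

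**Figure D1:**
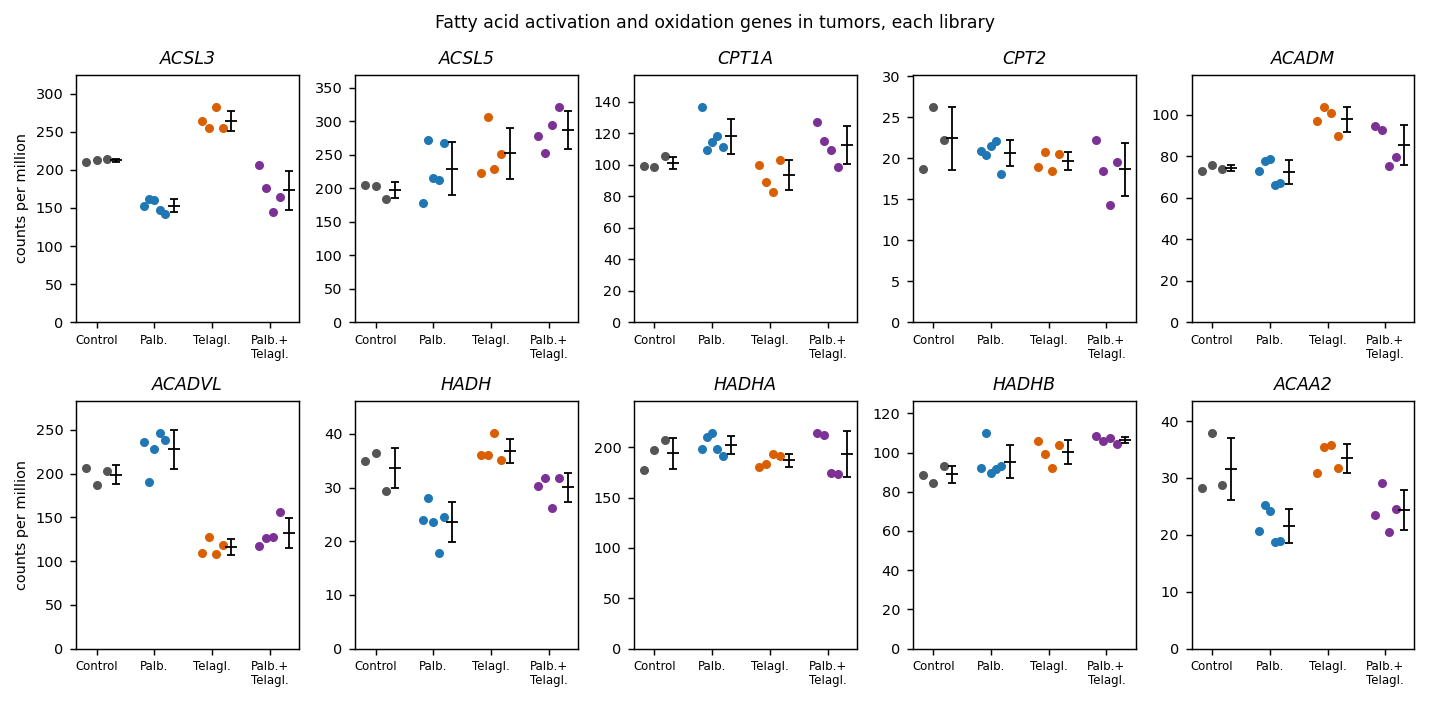
Level (CPM) of each gene in each tumor library (points), with the mean and SD of each treatment group (bar), on axes that start at 0. ACSL3 lies between 142 and 162 CPM in the Palbociclib tumors, below all Control tumors, and ACADVL is lower in the libraries with Telaglenestat, a difference that turned positive after correction for GC content and length.

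With Palbociclib alone, 3 of the 10 genes were called lower than in Control tumors and none higher. They came from separate steps, with ACSL3 in activation and HADH and ACAA2 in the last 2 reactions of the beta-oxidation round. Over all 14848 genes tested, 3.60% were called lower and 2.55% higher. All 3 were also called lower after correction, where the shares were 3.54% lower and 4.09% higher. The median log2 fold change of the 10 genes was 0.01, beside 0.0007 over all genes tested. The leukocyte and macrophage marker sum was also separate between these groups, at 23.7 to 32.99 CPM against 15.5 to 20.8, and its part in these calls was not tested.

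ACSL3, a synthetase of the endoplasmic reticulum and of lipid droplets, was at 210.1, 213 and 215 CPM in Control tumors. In Palbociclib tumors it was at 152, 162, 161, 148 and 142 CPM. Every Palbociclib tumor was below every Control tumor. Its log2 fold change was -0.47 ± 0.08 (SE, n = 5 against 3, adjusted p = 0.001) and -0.40 ± 0.08 when corrected (adjusted p = 0.00169), and it was called in all 10 alternatives and without any single library. HADH was at 34.9, 36.4 and 29.4 CPM in Control and at 23.9, 28.1, 23.6, 17.9 and 24.5 in Palbociclib tumors. The groups did not overlap, although the highest Palbociclib tumor came close to the lowest Control tumor. The log2 fold change was -0.51 ± 0.12 (adjusted p = 0.0115) and -0.49 ± 0.12 when corrected (adjusted p = 0.0162). The call was lost without Control tumor 1 (-0.48, adjusted p = 0.0662) or without Control tumor 2 (-0.45, adjusted p = 0.0902). ACAA2 was at 28.2, 37.9 and 28.7 CPM in Control and at 20.6, 25.2, 24.1, 18.8 and 18.9 in Palbociclib tumors. Again no Palbociclib tumor reached the Control range, and Control tumor 2 stood well above the other 2 Control tumors. The log2 fold change of ACAA2 was -0.55 ± 0.13 (adjusted p = 0.0126), corrected -0.53 ± 0.13 (adjusted p = 0.0112), and without Control tumor 2 it was -0.40 and no longer called (adjusted p = 0.145).

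The other 7 genes were not called with Palbociclib. CPT1A, the enzyme that commits long-chain acyl groups to mitochondrial entry and is inhibited by malonyl-CoA, was at 99.5, 98.4 and 106 CPM in Control and at 137, 109, 115, 119 and 111 in Palbociclib tumors. Every Palbociclib tumor was above every Control tumor, but the difference of 0.23 ± 0.09 missed the threshold (adjusted p = 0.173, corrected 0.117). ACADVL differed by 0.20 ± 0.09 (adjusted p = 0.262) and ACSL5, a synthetase of mitochondria and endoplasmic reticulum, by 0.21 ± 0.12 (adjusted p = 0.398). Log2 fold changes of CPT2, ACADM, HADHA and HADHB were -0.12, -0.04, 0.06 and 0.10, with 95% intervals that together spanned -0.40 to 0.26.

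Telaglenestat alone gave 4 calls relative to Control tumors, ACSL3, ACSL5 and ACADM higher and ACADVL lower, and none of them kept both call and direction after correction. Over all genes 22.6% were called higher and 28.5% lower, so that 3 and 1 of 10 is near what all genes gave. Corrected, the shares over all genes were 8.16% higher and 7.46% lower, and the members called were ACADVL, now higher, and CPT2, lower. The median over the 10 genes was 0.11 as deposited and 0.01 corrected, beside 0.03 and 0.05 over all genes.

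ACADVL was at 207, 187 and 203 CPM in Control and at 109, 127, 108 and 118 CPM in Telaglenestat tumors, with no overlap. It has the highest GC content of the 10 genes. As deposited its log2 fold change was -0.78 ± 0.10 (adjusted p = 1.9e-06), and corrected it was 0.27 ± 0.08 (adjusted p = 0.0234). Corrected levels were 134 to 145 CPM in Control and 152 to 184 in Telaglenestat tumors. The direction for this gene thus depends on the correction. In the decile of all genes with the highest GC content, at a median of 63.5%, the median log2 fold change was -1.53 as deposited and -0.08 corrected. In the decile with the lowest GC content, at 36.8%, it was 0.40 and 0.04.

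ACSL3, low in GC content, was at 264, 254, 283 and 255 CPM in Telaglenestat tumors, all above the Control tumors, which makes a difference of 0.31 ± 0.09 on the log2 scale (adjusted p = 0.00555). With the correction it was -0.02 ± 0.08 (adjusted p = 0.926). ACADM was at 96.9, 104, 101 and 89.8 CPM against 73.1, 75.7 and 73.9 in Control. These groups did not overlap as deposited, with 0.40 ± 0.09 (adjusted p = 0.00102), but corrected the difference was 0.13 ± 0.08 (adjusted p = 0.311). ACSL5 was at 223, 306, 229 and 252 CPM against 205, 204 and 183 in Control, a difference of 0.36 ± 0.13 (adjusted p = 0.0264) that fell to 0.18 ± 0.13 corrected (adjusted p = 0.38). Its call was also lost without Telaglenestat tumor 2, its highest (0.25, adjusted p = 0.111), or without Control tumor 3 (0.30, adjusted p = 0.105). CPT2, which rebuilds acyl-CoA inside the mitochondrion, was at 18.7, 26.3 and 22.3 CPM in Control and at 19, 20.7, 18.5 and 20.5 in Telaglenestat tumors. The groups overlapped and the log2 fold change was -0.19 ± 0.14 (adjusted p = 0.278), whereas corrected levels of 15.9 to 17.6 CPM lay below the 19.4 to 29.1 of Control, at -0.52 ± 0.14 (adjusted p = 0.0136). CPT1A, HADH, HADHA, HADHB and ACAA2 were called neither as deposited nor corrected, with log2 fold changes from -0.11 to 0.18.

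**Figure D2:**
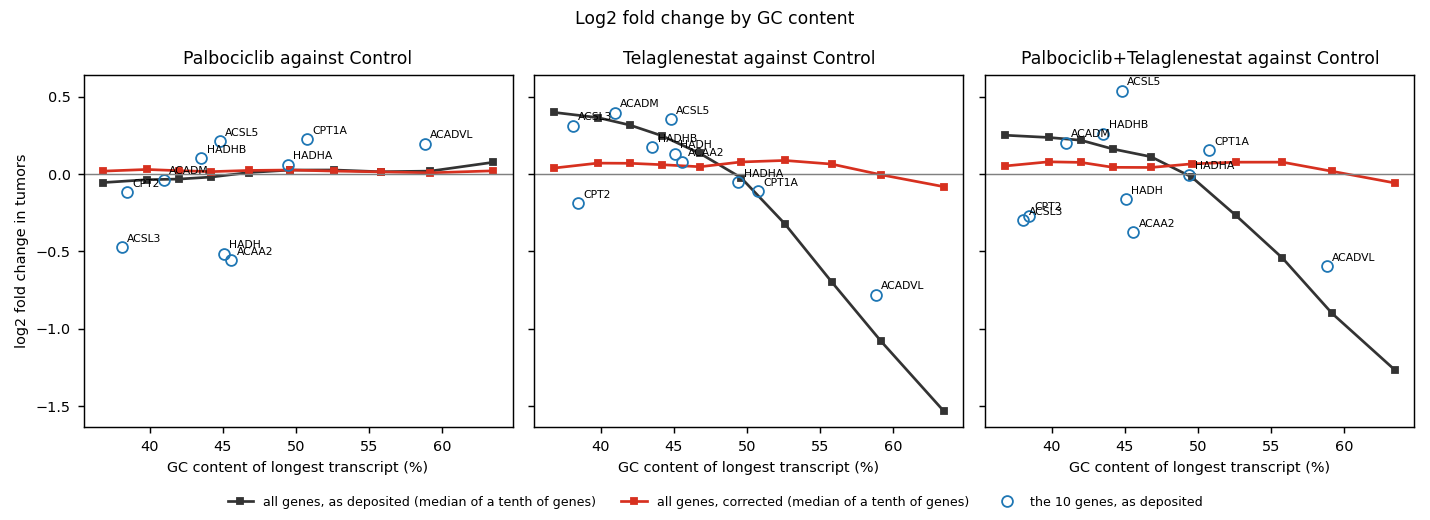
Log2 fold change in tumors against the GC content of the longest transcript (%), for the 10 genes as deposited (circles) and as the median of each decile of all genes as deposited (black) and corrected (red). In the Telaglenestat and Palbociclib+Telaglenestat panels the black line falls to -1.53 and -1.27 at the highest GC content and ACADVL lies above it, while the red line stays near 0.

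**Figure D3:**
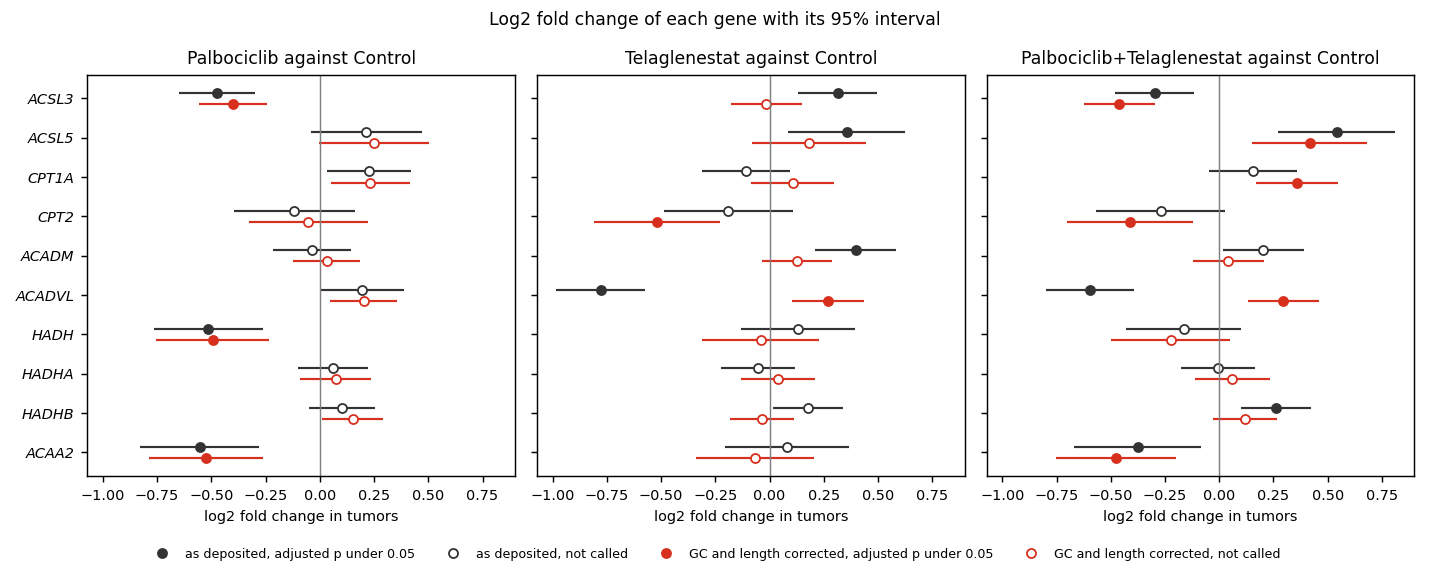
Log2 fold change of each gene against Control tumors with its 95% interval (horizontal lines), as deposited (black) and corrected (red), filled where the adjusted p was under 0.05. ACSL3, HADH and ACAA2 are filled in both colours with Palbociclib, and ACADVL changes side between colours with Telaglenestat and with Palbociclib+Telaglenestat.

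With Palbociclib+Telaglenestat, ACSL5 and HADHB were called higher and ACSL3, ACADVL and ACAA2 lower than in Control tumors. Over all genes 17.6% were called higher and 26.9% lower. Corrected, 3 of these calls were kept in the same direction (ACSL5, ACSL3 and ACAA2), CPT1A was called higher, CPT2 lower and ACADVL higher, where the shares over all genes were 16% higher and 11% lower. The median over the 10 genes was -0.08 as deposited and 0.05 corrected, beside -0.04 and 0.06 over all genes.

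ACSL3 was at 206, 176, 145 and 164 CPM in these tumors. All 4 were below the 3 Control tumors, 1 of them narrowly. The log2 fold change was -0.30 ± 0.09 (adjusted p = 0.00923), corrected -0.46 ± 0.08 (adjusted p = 0.000203), and it was not called in a single fit of all 28 libraries (-0.19, adjusted p = 0.175). ACSL5 was at 278, 253, 295 and 322 CPM, all above the Control tumors, with 0.54 ± 0.13 (adjusted p = 0.00193) and 0.42 ± 0.13 corrected (adjusted p = 0.0183). The 2 synthetases thus differed from Control in opposite directions with the combination. ACAA2 was at 23.5, 29, 20.5 and 24.5 CPM and overlapped with Control, at -0.38 ± 0.14 (adjusted p = 0.034) and -0.48 ± 0.13 corrected (adjusted p = 0.0111). Its call rested on few libraries, since leaving out Control tumor 2 gave -0.23 (adjusted p = 0.253), and leaving out combination tumor 1, 3 or 4 gave adjusted p of 0.0718, 0.108 and 0.0551. Over the 10 alternatives its adjusted p ran from 0.0104 to 0.201, with 5 calls.

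CPT1A was at 128, 115, 109.5 and 98.5 CPM with the combination, at 0.16 ± 0.10 (adjusted p = 0.202) as deposited and at 0.36 ± 0.09 (adjusted p = 0.006) corrected. CPT2, which acts after it in the shuttle, was at 22.2, 18.5, 14.3 and 19.6 CPM, at -0.27 ± 0.14 (adjusted p = 0.133) as deposited and -0.41 ± 0.14 (adjusted p = 0.0338) corrected. Against Control, neither carnitine palmitoyltransferase was thus called as deposited, and both were called corrected. Of the 10 alternatives with the combination, corrected ones included, CPT1A was called in 3 and CPT2 in 2. ACADVL was at 117, 126, 127 and 157 CPM, below all Control tumors, at -0.59 ± 0.10 (adjusted p = 5.27e-05), but at 0.30 ± 0.08 corrected (adjusted p = 0.00784). HADHB was at 108, 106, 107 and 104 CPM against 88.6, 84.7 and 93.4 in Control, at 0.26 ± 0.08 (adjusted p = 0.00932), but at 0.12 ± 0.07 corrected (adjusted p = 0.228). Without Control tumor 2 it was at 0.22 as deposited (adjusted p = 0.0547). ACADM (0.20) was not called (adjusted p = 0.0737), but it was in 6 of 10 alternatives, where its adjusted p ran from 0.0162 to 0.737. HADH (-0.16, adjusted p = 0.317) and HADHA (-0.004, adjusted p = 0.971) were not called either.

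Adding Palbociclib to Telaglenestat was a comparison that shares no library with Palbociclib against Control. ACSL3, ACAA2 and CPT1A were called, of 10, where 9.89% of all genes were lower and 8.93% higher. ACSL3 was lower by -0.61 ± 0.08 (adjusted p = 2.89e-05), with 145 to 206 CPM against 254 to 283 in Telaglenestat tumors, and by -0.45 ± 0.07 corrected (adjusted p = 0.000263). ACAA2 was lower by -0.46 ± 0.13 (adjusted p = 0.0192), with 20.5 to 29 CPM against 30.8 to 35.8 and no overlap, and by -0.41 ± 0.13 corrected (adjusted p = 0.0305). Its call was lost without Telaglenestat tumor 2 or 3 (adjusted p = 0.0512 and 0.0517) or without combination tumor 3 (adjusted p = 0.0808). Both genes were thus called lower in tumors with Palbociclib whether or not Telaglenestat was given, as deposited and corrected. Both comparisons use the same estimate of the spread from all 16 tumors. ACSL3 kept its calls without any single library, and ACAA2 did not in either comparison. Adding Palbociclib to Telaglenestat, ACSL3 was called in all 10 alternatives and ACAA2 in 9. HADH differed by -0.30 ± 0.12 here and was not called (adjusted p = 0.0904), although its groups did not overlap. CPT1A was higher by 0.27 ± 0.09 (adjusted p = 0.045), which missed the threshold when corrected (0.25 ± 0.09, adjusted p = 0.052) or without any of 5 single libraries. Corrected, 6.83% of all genes were lower and 8.60% higher.

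Adding Telaglenestat to Palbociclib gave 4 calls as deposited and none corrected. ACSL5 (0.33 ± 0.11), ACADM (0.24 ± 0.08) and HADH (0.35 ± 0.11) were called higher, with adjusted p of 0.0205, 0.0172 and 0.016, and ACADVL lower (-0.79 ± 0.09, adjusted p = 4.8e-07), where 20.1% of all genes were higher and 27.5% lower. Corrected log2 fold changes of these 4 were 0.17, 0.01, 0.27 and 0.09, with adjusted p from 0.137 to 0.951, where 8.59% of all genes were higher and 6.88% lower. HADH was at 30.3, 31.9, 26.2 and 31.8 CPM with both drugs against 17.9 to 28.1 CPM with Palbociclib alone. These values overlapped through combination tumor 3, and 3 of the 4 combination tumors lay within the Control range of 29.4 to 36.4 CPM. The call on ACSL5 was lost without Palbociclib tumor 1 or combination tumor 4, with log2 fold changes of 0.25 and 0.27, and that on ACADM without combination tumor 1 or 2, at 0.19 and 0.20.

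HADHA was called in no comparison among tumors, as deposited or corrected. It was at 178, 198 and 207 CPM in Control, at 198, 210.2, 214, 198 and 192 with Palbociclib, at 180.1, 184, 194 and 191 with Telaglenestat and at 214, 212, 175 and 174 with both. All 4 groups overlapped, and the 95% intervals of its log2 fold changes against Control were -0.10 to 0.22, -0.22 to 0.12 and -0.18 to 0.17, so changes beyond these sizes were not found at this depth. Its partner HADHB, which carries the thiolase site of the same complex and whose promoter shares the bases in capitals above, was called as deposited only with Palbociclib+Telaglenestat against Control among the tumor comparisons, and in none corrected. It was also called in 4 of 10 alternatives for Telaglenestat against Control, and in 4 of 10 for Palbociclib+Telaglenestat against Palbociclib. Across the 28 libraries, after the mean of each of the 8 conditions had been taken off, log2 levels of HADHA and HADHB had a Pearson correlation of 0.23, which ranked HADHB at 3431 of 13704 genes by likeness to HADHA, and 0.42 after correction. By the same measure the genes most like HADHA were SERINC3 (0.835), IARS (0.821) and EIF3L (0.817), and those most like HADHB were PTGR1 (0.88), SDCBP (0.81) and TRIM13 (0.78). Among pairs of the 10 genes, ACSL3 and ACADM were most alike (0.86) and ACADM and ACADVL least (-0.65). Libraries that share depth and GC dependence enter all of these values, which describe these libraries.

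None of the 10 genes was called in the cultures. Of the 10, 0 were called in each of 5 comparisons, where the shares over all 13985 genes tested were 0% for Palbociclib, 0% for Telaglenestat and 0.00715% (1 gene) for Palbociclib+Telaglenestat against Control. The shares for Palbociclib+Telaglenestat against Palbociclib and against Telaglenestat were 0% and 0%. At an unadjusted p under 0.05 all genes gave 592, 898, 894, 276 and 1968, in this order, in the edgeR fits, and DESeq2 also called none of the 10.

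**Figure D4:**
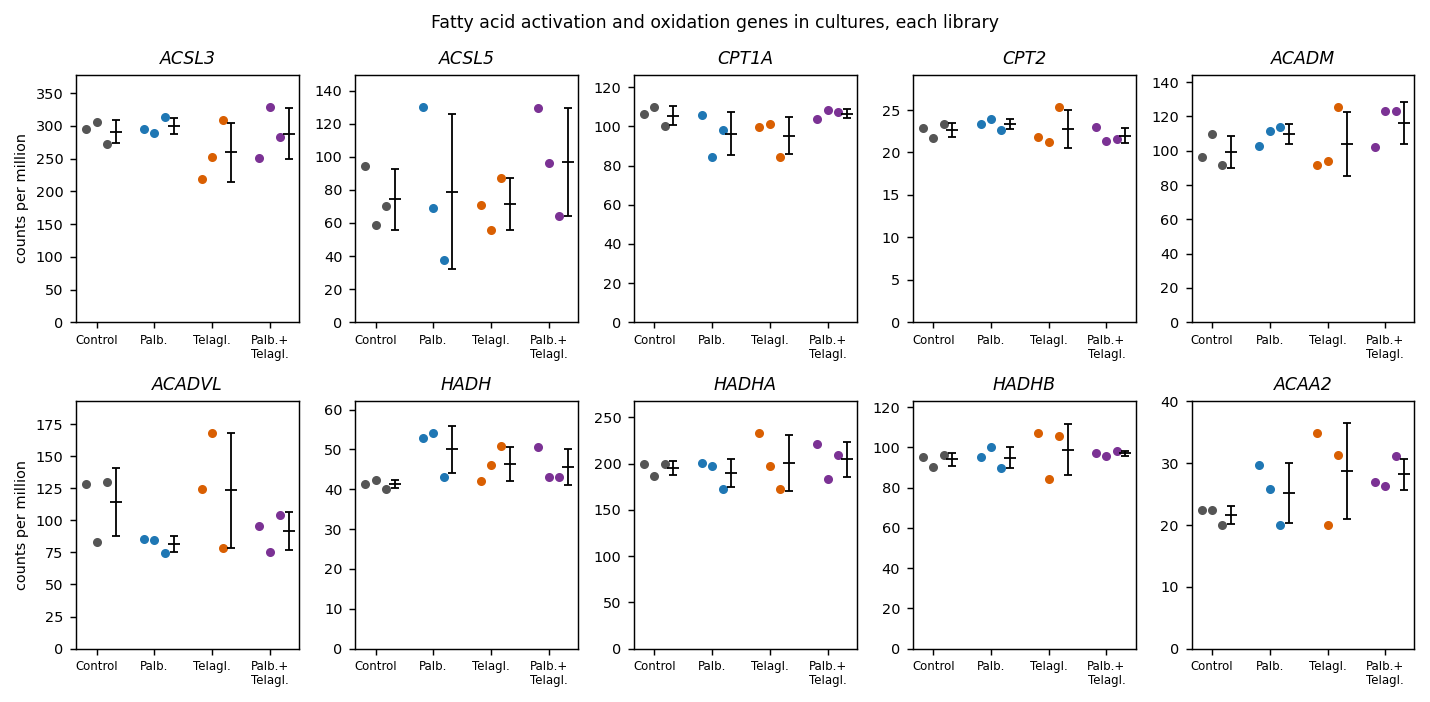
Level (CPM) of each gene in each culture library (points), with the mean and SD of each group of 3 (bar), on axes that start at 0. ACSL5 spreads widely within groups, from 37.7 to 130.1 CPM among the Palbociclib cultures, while CPT2 stays between 21.2 and 25.4 CPM in all 12.

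In cultures ACSL3 was at 295, 306 and 273 CPM in Control and at 296, 289 and 313 in Palbociclib, a log2 fold change of 0.04 ± 0.13 with an interval of -0.24 to 0.32. ACSL5 was at 94.6, 58.5 and 70.2 CPM in Control, at 130.1, 68.8 and 37.7 in Palbociclib, at 71.0, 55.6 and 87.0 in Telaglenestat and at 129.6, 96.1 and 64.4 in Palbociclib+Telaglenestat cultures. This was the widest spread of the 10 genes, and all 4 groups overlapped. HADH was at 41.3, 42.3 and 40.1 CPM in Control and at 52.8, 54.1 and 43.1 in Palbociclib cultures. It did not overlap between these groups and was higher, not lower, than Control, but its difference of 0.27 ± 0.13 was not called (adjusted p = 0.795). ACAA2 was at 22.5, 22.4 and 19.9 CPM in Control and at 27.0, 26.4 and 31.1 in Palbociclib+Telaglenestat cultures, also without overlap and not called (0.38 ± 0.21, adjusted p = 0.681). ACADVL ranged from 74.7 to 168 CPM over the 12 cultures, and in the Telaglenestat cultures it was at 124, 168 and 78.2 CPM, where the GC slope ran from -0.034 to 0.418.

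**Figure D5:**
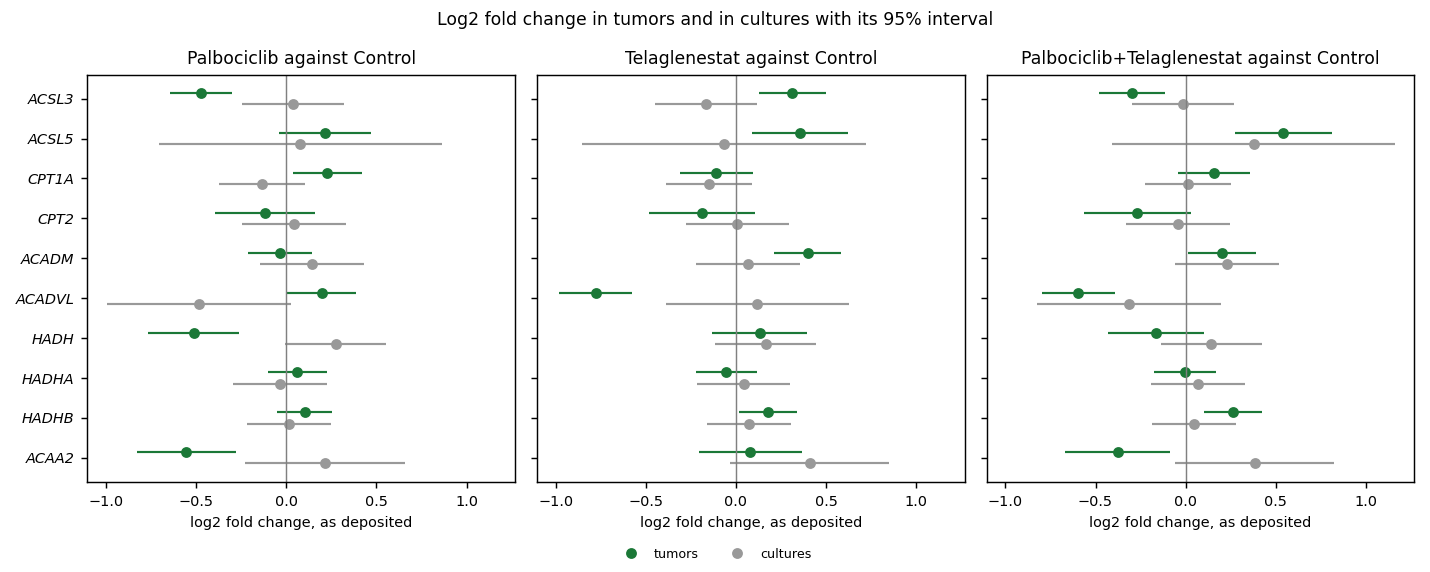
Log2 fold change against Control with its 95% interval (horizontal lines) for each gene in tumors (green) and cultures (grey), as deposited. With Palbociclib, HADH lies at -0.51 in tumors and at 0.27 in cultures, and with Telaglenestat ACADVL lies at -0.78 and 0.12.

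Whether a drug effect differed between tumors and cultures was tested as an interaction in a fit of all 28 libraries. With Palbociclib, HADH was called, at -0.79 ± 0.18 (adjusted p = 0.0206), where 1.38% of all genes were called. Corrected, it was -0.71 ± 0.19 and not called (adjusted p = 0.0738), where 158 of 15466 genes were called. Leaving out any of 6 single libraries also ended the call as deposited. ACSL3 and ACAA2, the other 2 genes lower in Palbociclib tumors, had interactions of -0.52 ± 0.16 (adjusted p = 0.105) and -0.78 ± 0.24 (adjusted p = 0.115), so a difference of their effect between tumors and cultures was not shown. With Telaglenestat, ACSL3 (0.57 ± 0.16), ACADM (0.42 ± 0.16) and ACADVL (-0.81 ± 0.25) were called, where 34.1% of all genes were called. None of the 3 was called when corrected (0.22, 0.17 and 0.34, with adjusted p of 0.401, 0.467 and 0.205), where 1284 of 15466 genes were called. As deposited, the ACADM call was also lost without any of 9 single libraries, and that on ACADVL without Control culture 2 (-0.63, adjusted p = 0.0608) or Telaglenestat culture 2 (-0.52, adjusted p = 0.0965). With Palbociclib+Telaglenestat 0 of 10 were called, where 2.91% of all genes were. Corrected interactions had a median over all genes of 0.15 with Telaglenestat and 0.13 with both drugs, against which the corrected values are to be read.

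Control tumors and Control cultures, neither exposed to a drug, differed in 6 of the 10 genes as deposited and in 6 corrected, 4 of them in both. Over all 15466 genes tested 23.1% were higher and 22.8% lower in tumors, and corrected 15.7% and 25.3%. Levels here are on the scale of all 28 libraries. ACSL5 was at 191, 192 and 171 CPM in Control tumors and at 97.6, 60.8 and 73.1 in Control cultures. It was higher in tumors by 1.26 ± 0.28 (adjusted p = 0.000538) and by 1.42 ± 0.27 corrected (adjusted p = 0.000112). ACSL3 went the other way, with 196, 200.5 and 200.2 CPM in tumors against 304, 318 and 284 in cultures, at -0.60 ± 0.12 (adjusted p = 0.000164) and -0.39 ± 0.11 corrected (adjusted p = 0.00692). The groups did not overlap for either synthetase.

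ACADM was lower in tumors, at 68.2, 71.4 and 69.0 CPM against 99.3, 114 and 95.4, by -0.56 ± 0.12 (adjusted p = 0.000329), and by -0.32 ± 0.10 corrected (adjusted p = 0.0102). HADH was lower too, at 32.6, 34.4 and 27.4 CPM against 42.7, 44.0 and 41.8, by -0.44 ± 0.13 (adjusted p = 0.00826) and by -0.46 ± 0.14 corrected (adjusted p = 0.0118), though its call was lost without a filter on low counts (-0.33, adjusted p = 0.179) or without Control tumor 3 (-0.36, adjusted p = 0.058). ACADVL was higher in tumors by 0.65 ± 0.18 (adjusted p = 0.00419), without Control culture 2 by 0.47 (adjusted p = 0.0508), and it differed by -0.002 ± 0.12 corrected (adjusted p = 0.991). HADHB was lower by -0.23 ± 0.09 (adjusted p = 0.0354), not called without any of 4 single libraries, and differed by -0.03 ± 0.08 corrected (adjusted p = 0.784). CPT1A (-0.21 as deposited, -0.40 corrected) and ACAA2 (0.40 and 0.52) were not called as deposited but were called corrected, with adjusted p of 0.00293 and 0.014. Of 9 alternatives, corrected ones included, HADHB was called in 1, CPT1A in 2 and ACAA2 in 5. Tumors hold mouse host cells and a blood supply. The cultures were plated from digested tumors, and whether mouse cells remained in them was not tested. The fibroblast marker sum was 161.5 to 203 CPM in Control tumors against 4.06 to 5.17 in Control cultures, each on its own scale and uncorrected. It counts reads on human genes and is not a direct measure of mouse cells. The part of host cells in these differences was not tested.

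Around the 10 genes stand 89 other genes of fatty acid handling, of which 74 were tested in tumors. With Palbociclib 1 of 74 was higher and 2 were lower, where 2.55% and 3.60% of all genes were, so these counts are not above the general share. The acyl-CoA binding protein DBI fell by 0.30 on the log2 scale (SE 0.07, adjusted p = 0.0138), from 103 to 83.7 CPM on average, and ACSL1, a synthetase related to ACSL3, fell by 0.46 (SE 0.12, adjusted p = 0.0217), from 32.5 to 23.6 CPM. MGLL, the lipase that cleaves monoacylglycerol, rose by 0.87 ± 0.23 (adjusted p = 0.0239), from 9.24 to 16.9 CPM. All 3 were also called corrected, but the DBI call was lost without Control tumor 2 (adjusted p = 0.151) and held in only 6 of 10 alternatives (adjusted p up to 0.358), and those of ACSL1 and MGLL without any 1 of the 3 Control tumors (adjusted p from 0.0523 to 0.108), that of MGLL also without Palbociclib tumor 5 (adjusted p = 0.0624). Of 16 tested genes of other mitochondrial beta-oxidation steps, 13 of peroxisomal beta-oxidation and 12 regulators, 0 were called with Palbociclib by edgeR.

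With Telaglenestat 16 of the 74 were higher and 31 lower as deposited, beside 22.6% and 28.5% of all genes, and 5 and 8 corrected, beside 8.16% and 7.46%. ETFB, the beta subunit of the flavoprotein that takes electrons from the acyl-CoA dehydrogenases, was at 26.9 ± 2.24 CPM in Control (SD, n = 3) and 7.09 ± 2.14 in Telaglenestat tumors (SD, n = 4). Its log2 fold change was -1.93 ± 0.20 (adjusted p = 1.73e-07) and changed little with the correction, at -1.89 ± 0.19 (adjusted p = 1.04e-06). ACAA1, the peroxisomal thiolase, fell by 1.49 (adjusted p = 1.81e-06) and by 1.40 corrected (adjusted p = 1.51e-05), from 32.1 to 11.4 CPM on average. It shares 1403 exon bases with DLEC1 on the opposite strand, which had 69 counts in all. For other genes the direction held and the size did not. HSD17B10, a mitochondrial dehydrogenase, was at -1.60 and -0.63 corrected, the PPAR target ANGPTL4 at -2.68 and -1.24, the triacylglycerol lipase PNPLA2 at -2.24 and -0.74, and the fatty acid transporters SLC27A4 and SLC27A1 at -1.76 and -1.74 as deposited and -0.54 and -0.61 corrected. FABP5, a fatty acid binding protein, was higher by 0.27 and by 0.29 corrected (adjusted p = 0.0139 and 0.0143), and its call was lost without Control tumor 1 (adjusted p = 0.101).

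With Palbociclib+Telaglenestat 10 of the 74 were higher and 31 lower as deposited, beside 17.6% and 26.9% of all genes. Corrected, 13 and 9 were, near the 16% and 11% of all genes. ETFB was at 7.91 ± 1.11 CPM (SD, n = 4), lower than Control with a log2 fold change of -1.76 ± 0.20 and of -1.71 ± 0.19 corrected. ACAA1 was at -1 and -0.90 corrected, HSD17B10 at -1.11 and -0.41, ECH1, a dienoyl-CoA isomerase, at -1.28 and -0.51, ACAD9, an acyl-CoA dehydrogenase that also serves complex I assembly, at -0.83 and -0.43, and CRAT, carnitine acetyltransferase, at -1.89 and -0.79. PNPLA2 was at -1.79 and -0.55, and PLIN2, a coat protein of lipid droplets, at -0.53 and -0.49. Higher were the nuclear receptor PPARG (0.72 and 0.59 corrected), the transporter SLC27A2 (0.69 and 0.70), the acyl-CoA binding ACBD3 (0.44 and 0.27), FABP5 (0.35 and 0.31), and the peroxisomal genes ABCD3 (0.44 and 0.28) and SCP2 (0.43 and 0.33). The 3 comparisons against Control share the same 3 Control tumors, so their values are set side by side and were not counted as separate evidence.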

How the data were processed

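Per the labels, processing by the authors used CASAVA 1.8, STAR and the genome build hg38, and the authors deposited whole-number read counts per gene, one column per library, without normalization. Libraries were poly(A) selected and read single-end, and the annotation release and the use of strand in counting are not given in the sources used here. Gene IDs were matched to GENCODE 29 (57940 of 58278). Genes were filtered by filterByExpr (minimum count 10) and scaled by TMM, and tumors and cultures were fitted separately as group means with edgeR 4.0.16 in R 4.3.3 (glmQLFit, glmQLFTest). Control tumors against Control cultures and the interactions came from a fit of all 28 libraries. P-values were adjusted by Benjamini-Hochberg over all genes tested, with a threshold of 0.05. Levels are edgeR CPM.

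The correction took from each library a natural spline (4 degrees of freedom) of log2 deviations on GC content and log2 exon length, fitted by rlm (MASS 7.3-60.0.1), and entered as an offset. Other alternatives were DESeq2 1.42.0, its size factors in edgeR, no filter, 10 counts in every library, the compared groups only, all 28 libraries, only genes annotated as protein-coding, a replicate block, and leaving out each library. Scripts were tested on simulated data with 200 changed genes.

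Groups came from the labels, and all 28 libraries were used. Per the study's methods, tumors came from separate mice and cultures from separate tumors, but which mouse gave which library is not in the labels. The members and gene lists were chosen with earlier results of these data known. Context genes named are, per list and comparison against Control, at most 4 with the largest change among those called as deposited and corrected in the same direction with a mean log2 CPM of at least 1. A gene that this rule names is not reported here. Library totals of 6273834 to 13815675 counts limit precision mostly for HADH, CPT2 and ACAA2.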

Additional observations from a re-analysis of the deposited data

Results flagged for a closer look

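One member value stood far from the others of its group. HADHB was at 109.9 CPM in Palbociclib tumor 2, while the other 4 Palbociclib tumors were between 89.8 and 93.3 CPM. Of 30 values of a gene in a tumor group of 4 or 5 that were tested in this way, 1 was past the limit, and chance alone passes it in about 1 group in 20. Groups of 3 were not tested.

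The effect of a drug differed between tumors and cultures, by a test of the difference itself, for 4 values. HADH differed with Palbociclib by -0.79 on the log2 scale, where 1.38% of all genes were called. With Telaglenestat, ACSL3 differed by 0.57, ACADM by 0.42 and ACADVL by -0.81. There 34.1% of all genes were called, so 3 of 10 is near the general share. The calls on HADH, ACADM and ACADVL were also lost in some fits without a single library. None of the 4 was called after correction for GC content and gene length, where 158 of 15466 genes were called with Palbociclib and 1284 with Telaglenestat. Whether the GC dependence of the libraries accounts for the uncorrected calls was not tested beyond that.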

How the results depend on the processing

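Counts of members called stayed within 1.5 times of the reported count in 119 of 133 refits other than left-out libraries. These refits include the 5 culture comparisons, where at most 1 of 13985 genes was called and no member in any refit. They add little to this count, and all counts that moved were in other comparisons. A count that stayed does not mean that the same genes were called. Palbociclib+Telaglenestat against Control had 5 calls as deposited and 6 corrected, of which 3 were shared in the same direction. Control tumors against Control cultures had 6 and 6, of which 4 were shared. GC and length correction gave 2 calls for Telaglenestat against Control (1 with the replicate block added) and 0 for Palbociclib+Telaglenestat against Palbociclib (0), for the Palbociclib interaction (0) and for the Telaglenestat interaction (0). One fit of all 28 libraries gave 1 call for Palbociclib+Telaglenestat against Telaglenestat. The Palbociclib interaction had 3 calls by DESeq2, 4 without a filter and 0 with the replicate block, the Telaglenestat interaction 1 without a filter, and the Palbociclib+Telaglenestat interaction 1 without a filter. Leaving out 1 library gave 1 to 3 calls for Palbociclib against Control, 3 to 5 for Palbociclib+Telaglenestat against Control, 1 to 3 for Palbociclib+Telaglenestat against Telaglenestat, 0 to 1 for the Palbociclib interaction and 1 to 3 for the Telaglenestat interaction.

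Directions turned only under the correction, alone or with the replicate block. ACADVL against Control was 0.27 and 0.24 with Telaglenestat and 0.30 and 0.27 with Palbociclib+Telaglenestat, 0.0943 and 0.0754 for Palbociclib+Telaglenestat against Palbociclib, -0.0022 and -0.0008 for Control tumors against cultures and 0.34 and 0.33 for the Telaglenestat interaction. ACSL3 with Telaglenestat was -0.0158 and -0.0001, and ACADM for Palbociclib+Telaglenestat against Palbociclib -0.0119 with the block. Sign changes of values called in neither fit were not counted.

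Same-numbered libraries did not deviate together (median correlation -0.004 in tumors and -0.03 in cultures), so the numbers were not taken as pairs. The replicate block changed 3 calls, ACADM with Palbociclib+Telaglenestat (0.24, gained), HADHB between Controls (-0.23, lost) and HADH in the Palbociclib interaction (-0.77, lost). Most other settings changed more calls on members. Fits without a filter and the fit of all 28 libraries changed 11 each, DESeq2 9, its size factors in edgeR 7 and protein-coding genes only 6. Under GC and length correction 5 calls were gained, 11 lost and 6 values reversed.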
